A study of Mus musculus with 14 samples.

Results

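DNA methylation was compared between 4 obese mice that had undergone vertical sleeve gastrectomy (DIO-VSG) and 4 mice kept obese (DIO-HFD). These were 8 of the 14 mice of a reduced representation bisulfite sequencing (RRBS) series, and all 75761 sites of its table were used. All 8 mice were female C57BL/6NCrl, bought at 8 weeks of age and made obese over 15 weeks on a diet with 60% of calories from fat. DIO-HFD mice then had a sham procedure and stayed on that diet, whereas DIO-VSG mice had part of the stomach removed and changed to a diet with 10% of calories from fat. Surgery and the change of diet therefore cannot be told apart in this comparison. All mice received E0771 mammary cancer cells in a mammary fat pad 7 weeks after the procedure, and the tumor-free contralateral fat pad was taken 4 weeks after the injection. The labels carry the name of the cell line as a tag, although the tissue is normal mammary tissue. The other groups were lean mice on the low-fat diet throughout (CON-LFD, 3 mice) and formerly obese mice switched to the low-fat diet after a sham procedure (DIO-LFD, 3 mice). They entered the estimate of the spread and set the level classes below. The table gives each level as the methylated share of the reads at a site, without read counts, so the depth behind a value is unknown. It holds no expression, so the tissue could not be checked by marker genes.

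In RRBS the genome is cut at CCGG by the enzyme MspI and the fragment ends are sequenced after bisulfite conversion, which favors CpG-rich DNA. In mammals DNA methylation is found mainly at CpG dinucleotides. Most CpGs of the genome are methylated, while CpG islands, the CpG-dense stretches that many promoters share, are mostly kept free of it. The mammary fat pad is made mainly of adipocytes, with fibroblasts, vessels, immune cells and epithelial ducts. In such bulk tissue a change in the share of a cell type and a change of level within its cells cannot be told apart.

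DIO-HFD replicate 1 stood apart from the other 3 DIO-HFD mice. Its mean level over the 65610 sites whose standard deviation across the 14 mice was at least 0.05 was 66.2%, whereas DIO-HFD replicates 2, 3 and 4 were at 57.2, 57.6 and 57.6%. The DIO-VSG mice lay together between these, at 64.8, 64.2, 64.5 and 64.8%. Class differences and counts over all sites and genes are therefore mostly given with and without this mouse. It was singled out by its level, so that p-values without it are descriptions of the other 7 mice. Counts for gene lists and named genes mostly include all 4 DIO-HFD mice. Each replicate has a mouse number of its own in the table. The label of this mouse was taken as given, and whether it belongs to its group was not tested, which bears on every value that includes all 4 DIO-HFD mice.

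The sequences of 4 places that the results below turn on are given here from the forward strand of GRCm38. The Ctnnb1 and Gm23036 sites are shown because they passed the test over all sites, and the Celf1 site because its methylation was nearly absent in DIO-HFD mice. The capitals of these mark the CCGG that holds the measured site, in chr9:120933340-120933401, chr1:102628839-102628900 and chr2:90940865-90940926. Kcnj11 is shown because a run of neighboring sites there had lower levels in DIO-VSG mice. Its capitals mark the 8 measured CpGs in chr7:46099581-46099829.
Ctnnb1: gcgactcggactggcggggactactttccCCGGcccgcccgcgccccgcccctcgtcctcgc
Gm23036: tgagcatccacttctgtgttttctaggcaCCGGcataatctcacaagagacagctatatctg
Celf1: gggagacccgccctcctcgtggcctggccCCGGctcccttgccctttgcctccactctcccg
Kcnj11: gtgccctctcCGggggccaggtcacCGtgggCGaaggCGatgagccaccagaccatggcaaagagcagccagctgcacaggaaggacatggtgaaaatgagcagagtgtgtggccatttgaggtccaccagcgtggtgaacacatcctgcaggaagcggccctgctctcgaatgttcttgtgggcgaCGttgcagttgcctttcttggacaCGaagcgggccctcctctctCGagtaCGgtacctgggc

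The difference between DIO-VSG and DIO-HFD mice varied with the level of the sites. Sites were placed in 5 classes by the mean level of the 6 CON-LFD and DIO-LFD mice, which were not compared. The filter on the standard deviation, however, used all 14 mice, so the compared mice had a part in which sites entered. In the 23022 sites at 70 to 90%, the DIO-VSG mice were at 83.8, 83, 83.2 and 83.7%. The DIO-HFD mice were at 85, 73.5, 72.9 and 74%. The mean difference was 7.04 percentage points with all 4 DIO-HFD mice and 9.92 without replicate 1. It was 5.26 points, or 7.71 without replicate 1, in the 24606 sites at 30 to 70%, and 3.52 points, or 4.94, in the 8811 sites at 90% and above. Below 30% the group means at this filter were 20.5% ± 0.384 (SD, n = 4) in DIO-VSG and 20.6% ± 1.71 in DIO-HFD mice at 10 to 30%, and 8.19% ± 0.407 against 8.66% ± 2.26 under 10%. This depended on the filter, since at a minimum standard deviation of 0.1 the differences were -2.95 and -6.36 points (exact p = 0.0286 for each). In the 3 upper classes the exact two-sided permutation test over the 8 mice gave p = 0.143, or 0.238 after Benjamini-Hochberg adjustment over the 5 classes, and in the 2 lower classes p was 0.857 and 0.914. The smallest p that 4 against 4 mice allow is 0.0286. Without DIO-HFD replicate 1 the groups did not overlap in the 3 upper classes, with p = 0.0571 in the exact test, the smallest that 4 against 3 mice allow. The difference between the 30 to 70% class and the 90% class was not itself separated from the spread (1.73 points, exact p = 0.371).

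**Figure D1:**
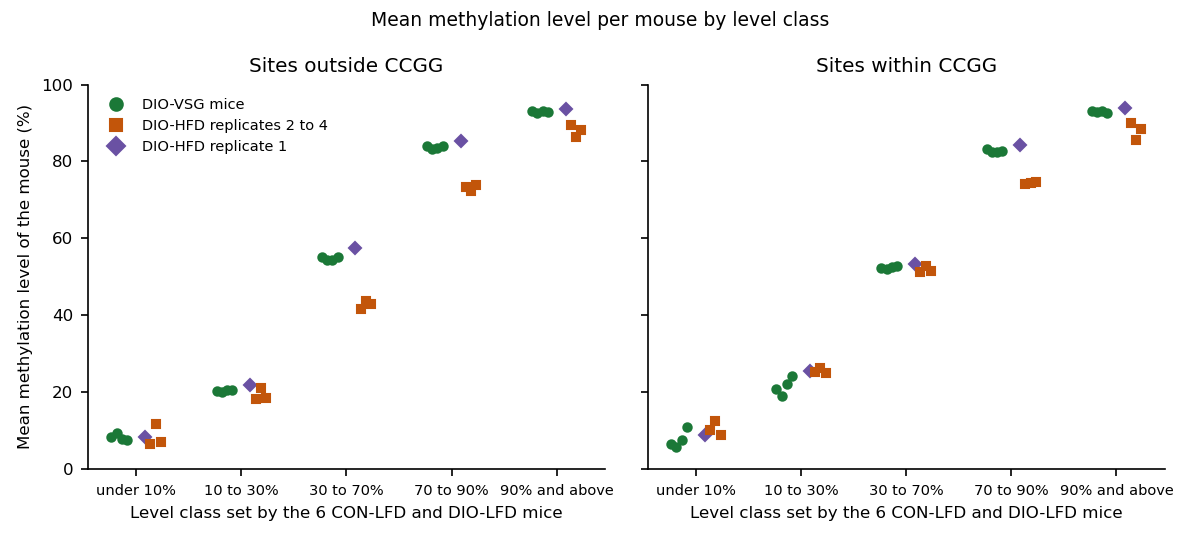
Mean methylation level (percent, y axis) of each of the 8 mice over the tested sites of each level class (x axis), for sites outside CCGG (left) and within CCGG (right). Each point is 1 mouse. Outside CCGG at 30 to 70%, DIO-HFD replicates 2 to 4 lie between 41.6 and 43.6% and the DIO-VSG mice between 54.2 and 55.2%, whereas within CCGG all 8 mice lie between 51.4 and 53.4%.

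Among the sites at 30 to 70%, the difference was larger outside than within the MspI motif. Outside it the 4 DIO-VSG mice were at 55.2, 54.2, 54.5 and 55.2% over 15375 sites, and the DIO-HFD mice at 57.6, 41.6, 43.6 and 43.1%. Over the 9231 sites within CCGG the values were 52.4, 52.1, 52.5 and 52.8% in DIO-VSG and 53.4, 51.4, 52.7 and 51.6% in DIO-HFD mice, and the groups overlapped. The median difference per site was 9.46 points outside and 0.0893 points within CCGG. At 70 to 90% the medians lay closer together, with 7.75 points outside and 7.10 points within it. Over all tested sites, the mean difference was 5.98 points outside CCGG and 2.25 points within it (exact p = 0.143 for both).

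The difference was smaller at CpG island promoters than in the other annotation classes, less so outside CCGG. Using the flags of the table, 7890 tested sites were in promoters within CpG islands, 7482 in other promoters, 6490 in islands away from promoters, 8052 in exons, 16922 in introns and 18774 in none of these. In exons the DIO-VSG mice were at 70.8, 70.3, 70.1 and 70.5% and the DIO-HFD mice at 72.1, 60.3, 61.6 and 61.2%. In introns they were at 70.3, 69.6, 69.8 and 70.3% against 71.7, 60.6, 60.8 and 61.1%. In island promoters they were at 42.6, 42, 42.7 and 43% against 44.4, 39.3, 41.6 and 40.5%. The mean differences were 6.62 points in exons, 6.41 in introns, 4.82 in unflagged sites, 4.80 in other promoters, 3.69 in islands away from promoters and 1.12 in island promoters. Without DIO-HFD replicate 1 they were 9.40, 9.14, 6.82, 6.95, 5.82 and 2.09 points. The exact p was 0.371 in island promoters and 0.143 in each of the other 5 classes, 0.171 after adjustment over the 6.

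The gap between introns and island promoters was itself compared within each mouse. It was 27.4 ± 0.296 points (SD, n = 4) in DIO-VSG and 22.1 ± 3.62 in DIO-HFD mice, with exact p = 0.0857. The gap between promoters outside and within islands was 10.8 ± 0.379 against 7.10 ± 2.36 points, with exact p = 0.0571. Both had an adjusted p of 0.179 over the 5 differences between classes. Outside CCGG the intron gap differed by 2.78 points between the groups, against 5.29 over all sites. There island promoters differed by 4.29 points, islands away from promoters by 4.57 and unflagged sites by 5.17.

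Levels were lower near gene starts in every mouse, and the difference between the groups was smaller there. Over the 2821 sites 0 to 200 bases downstream of the nearest start, the difference was 1.79 points. It was 3.95 points at 500 to 1000 bases, 5.09 at 1000 to 2000 and 6.00 over the 12176 sites at 2000 to 10000 bases. It was 4.54 points beyond 50000 bases. By CpG count in a window of 202 bases, the difference was 6.71 points over 10511 sites with 5 to 6 CpGs and 3.14 points over 4753 sites with 16 to 20 CpGs, and was smaller still with more CpGs. These finer splits are descriptions without a test.

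**Figure D2:**
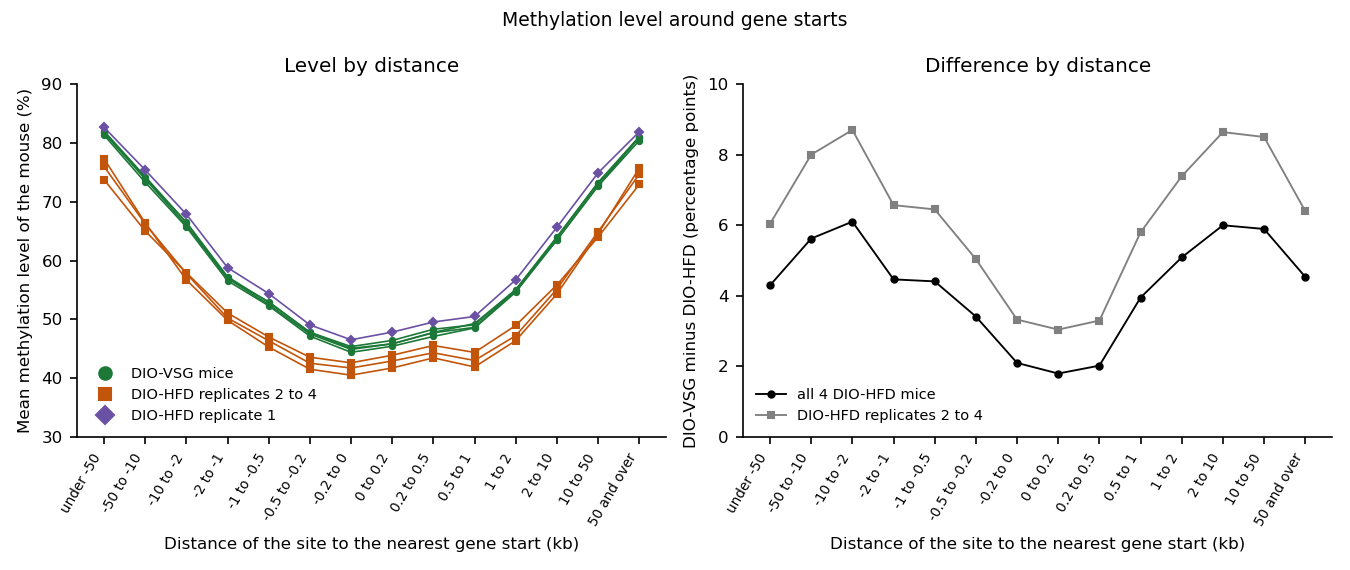
Left, mean methylation level (percent) of each mouse by the distance of the site to the nearest gene start (kb, binned on the x axis). Right, DIO-VSG minus DIO-HFD (percentage points) with all 4 DIO-HFD mice and with replicates 2 to 4 only. All lines on the left dip at the start, and the difference falls to 1.79 points at 0 to 200 bases.

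Island promoters were also split by the MspI motif. Outside CCGG, the DIO-VSG mice were at 32.9, 32.3, 32.8 and 33% over 3163 sites, and the DIO-HFD mice at 35.3, 24, 28 and 26.4%. Over the 4727 sites within CCGG, all 8 mice lay near the middle of the scale, with 49, 48.5, 49.4 and 49.7% in DIO-VSG and 50.4, 49.6, 50.7 and 49.9% in DIO-HFD mice. The gap between sites within and outside CCGG was 16.4 ± 0.281 points in DIO-VSG and 21.7 ± 4.56 in DIO-HFD mice (exact p = 0.143). The spread of single sites around the middle was examined after these values were seen. Of the 6631 such sites in the unfiltered table, 79.7, 73.5, 79.6 and 82.6% were at 30 to 70% in the DIO-VSG mice. In the DIO-HFD mice the share was 85.2, 85.8, 84.8 and 85.3%, so the groups did not overlap and DIO-HFD replicate 1 lay with the other DIO-HFD mice. The exact permutation test gave p = 0.0286, the smallest possible, and 0.171 after adjustment over the 6 shares computed. The share under 10% was 2.71, 6.09, 2.53 and 1.58% in DIO-VSG and 1.72, 1.12, 1.18 and 1.55% in DIO-HFD mice. At 90% and above it was 2.05, 4.78, 2.17 and 1.58% against 2.19, 1.15, 1.46 and 1.99%. DIO-VSG replicate 2 was the highest of the 8 mice at both ends, and the groups overlapped at both.

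Tested site by site, 2 of the 65610 sites passed an adjusted p of 0.05 in limma, 1 higher and 1 lower in DIO-VSG mice (0.00152% each). The lower site was at Ctnnb1, the gene of beta-catenin, at chr9:120933370, 30 bases before the start the table assigns and in an intron of the gene in GENCODE, within an island promoter. Its level was 0% in all 4 DIO-VSG mice and 27.6, 19.3, 19.7 and 13.5% in the DIO-HFD mice. It was 14.3, 30.4 and 11.8% in the CON-LFD mice and 0% in the 3 DIO-LFD mice. Of the 6 tested sites of Ctnnb1, 2 were higher and 2 lower at an unadjusted p under 0.05, and the gene mean was 58.3% in DIO-VSG and 54.1% in DIO-HFD mice, a direction that turned on centring. The higher site lay in no annotated gene at chr1:102628869 and -214849 bases from the start of its nearest gene, Gm23036. Its level was 100% in all 4 DIO-VSG mice and 82.4, 81.8, 76.2 and 76.2% in the DIO-HFD mice, so the groups did not overlap at either site. The log2 ratio of methylated to unmethylated share differed by -4.67 ± 0.36 (SE) at Ctnnb1 and by 4.77 ± 0.38 at Gm23036, and both had an adjusted p of 0.000349. With the level in place of the log ratio the adjusted p was 0.0740 for both, so these calls depended on the scale. The depth behind a level of exactly 0 or 100% is unknown.

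The unadjusted test gave 13250 higher sites (20.2%) and 3183 lower sites (4.85%) at p under 0.05. The 4 DIO-VSG mice lay above all 4 DIO-HFD mice at 3641 sites (5.55%) and below them at 1335 (2.03%). Without DIO-HFD replicate 1, 18868 sites were higher (28.8%) and 3689 lower (5.62%) at an adjusted p under 0.05. The split between directions depended on the common shift of the mice. When each mouse was centred on its median, which removed 0.48 from the median log2 ratio, 5666 sites were higher and 7447 lower at the unadjusted threshold. The shares of higher and lower sites were 26.5 and 5.32% in introns, 27 and 5.76% in exons, and 7.90 and 4.18% in island promoters. At sites of 10 to 30% they were 16.3 and 14%, so lower sites were nearly as frequent as higher ones there.

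The sites with the smallest p per class, among those where the groups did not overlap, were often at 0 or 100% throughout the DIO-VSG mice. Those described for Tmem9b, Celf1, Zfand3 and Meis2 lay within CCGG, and those of Zbtb17 and Rai1 outside it. Apart from Ctnnb1 and Gm23036 none passed the adjusted test with all mice. The adjusted p was 0.0548 at a site of Meis2 and 0.15 at the other sites of Tmem9b, Celf1, Zfand3, Meis2, Zbtb17 and Rai1. Tmem9b, which encodes a transmembrane protein, had a site at chr7:109752220 in its UTR, 60 bases from the start, at 0% in the 4 DIO-VSG mice and at 44.7, 44.4, 38.8 and 44.3% in the DIO-HFD mice. Celf1, an RNA-binding regulator of splicing, had an intronic site at chr2:90940895, 354 bases from the start, at 26.6, 19.8, 18.6 and 34.4% in DIO-VSG and 0, 0, 1.33 and 0% in DIO-HFD mice. DIO-HFD replicate 1 lay with its group at both, which the choice of sites without overlap required.

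Zfand3, a zinc-finger protein gene, had neighboring sites in both directions. The site in its coding exon at chr17:30005249 was at 100, 100, 97.2 and 100% in DIO-VSG and 73, 81.1, 86.1 and 77.4% in DIO-HFD mice. The intronic site at chr17:30005380 was at 0% in the DIO-VSG mice and 22.7, 15.1, 13 and 18% in the DIO-HFD mice. Meis2, a homeobox gene, also had exon sites in both directions. The site at chr2:116062292 was at 100, 100, 97.4 and 95.1% against 81.5, 79.8, 84.8 and 85%, and that at chr2:116062407, with the adjusted p of 0.0548, was at 0% against 14.4, 12.4, 15 and 11.3%.

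Lower levels in coding DNA were seen at a pair of sites that the table assigns to Zbtb17 but that lie in a coding exon of Spen, a transcriptional corepressor gene. The site at chr4:141477802 was at 33.6, 32.1, 33.2 and 31.4% in DIO-VSG and 54.2, 62.8, 54.9 and 59% in DIO-HFD mice. Rai1, a chromatin-associated regulator, had a coding site at chr11:60185124 at 17.3, 16.5, 22.2 and 14.1% against 30.2, 44.1, 48.6 and 56%. In both, all DIO-VSG values were below all DIO-HFD values, which the choice of these sites required.

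Levels were also averaged over the tested sites of a gene. Of 3886 genes with at least 5 tested sites, 1437 were higher (37%) and 147 lower (3.78%) at an unadjusted p under 0.05 in limma, and 0 passed the adjusted threshold (lowest adjusted p 0.0885). Centring each mouse turned this split, with 485 genes higher and 697 lower. Without DIO-HFD replicate 1, 2237 genes were higher (57.6%) and 205 lower (5.28%) at an adjusted p under 0.05. The 147 lower genes had a mean of 29.1% of their sites in CpG islands and a median level of 43.9% in the CON-LFD and DIO-LFD mice. For the 1437 higher genes these were 12.3% and 69.7%, and for all 3886 genes 19.2% and 65.3%.

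The 4 lower genes with the smallest p were Gm22890, Usp35, Kcnj11 and Egr3. Egr3, an early growth response zinc-finger transcription factor, had 57 tested sites, of which 43 were lower and 1 higher at an unadjusted p under 0.05. Its gene mean was 37.2, 36.7, 37.6 and 37.5% in DIO-VSG and 40.1, 47.3, 53.4 and 53.1% in DIO-HFD mice. On the log2 scale this was -0.65 ± 0.15 (SE), with an unadjusted p of 0.000963 and an adjusted p of 0.0885 in limma. In the CpG island of its coding exon all 43 sites had a lower mean in DIO-VSG mice. The island mean was 30.3, 30.6, 31.2 and 30.3% in DIO-VSG and 34.8, 44.2, 50.5 and 51.5% in DIO-HFD mice. At 28 of the 43 sites all DIO-VSG values were below all DIO-HFD values, replicate 1 included. The other 6 mice lay between 30.5 and 34.7%. Neighboring sites share fragments and are not independent, and the island was delimited after its values were seen.

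Kcnj11, the pore subunit of the ATP-sensitive potassium channel, showed a run of 8 sites in its coding exon, at chr7:46099591-46099818. The mean over the run was 36.6, 34.3, 34.6 and 37.8% in DIO-VSG and 45.2, 75.8, 62.4 and 56.5% in DIO-HFD mice. Of the 13 tested sites of Kcnj11, 8 were lower and 1 higher at an unadjusted p under 0.05. The run holds just these 8 lower sites, so their common direction came with the choice. At 6 of the 8 the groups did not overlap. The sites of the run lay 420 to 647 bases from the gene start, in a promoter outside islands by the flags. Usp35, a deubiquitinase gene, had 9 sites in its coding exon at chr7:97325561-97325671, at 17.9, 19.7, 19.2 and 15.5% against 22.6, 27, 38.6 and 35.6%. Again the groups did not overlap in the mean of the run. Of the 11 tested sites of Usp35, 8 were lower and 0 higher at an unadjusted p under 0.05. Both runs were delimited with their values known.

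**Figure D3:**
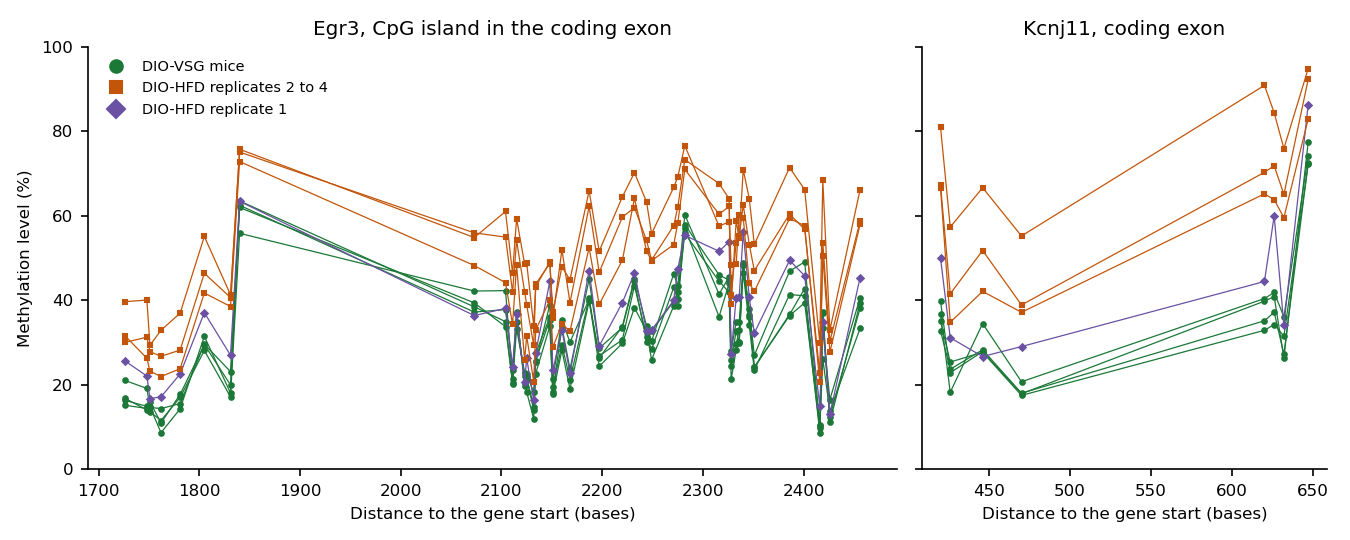
Methylation level (percent, y axis) of each measured site in the Egr3 island (43 sites, left) and the Kcnj11 run (8 sites, right) by distance to the gene start (bases, x axis), with a line for each mouse. The lines of the 4 DIO-VSG mice lie lowest at most sites, those of DIO-HFD replicates 2 to 4 highest, and that of replicate 1 closer to the DIO-VSG mice.

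Gm22890, a small nucleolar RNA gene, took its 10 sites from 2476 to 29562 bases downstream of its start, at 54.5, 55.5, 52.9 and 56.2% in DIO-VSG and 60.4, 69.1, 69.9 and 63.5% in DIO-HFD mice. The 4 higher genes with the smallest p, Gm26379, Gm45589, Gm23447 and Gm24164, are annotated as noncoding RNAs, and the sites of Gm24164 reach from -437152 to 93288 bases of its start. Those of Gm26379 reach from -148670 to 91677 bases, and those of Gm23447 from 74311 to 343590 bases. Gm26379 was at 87.5, 87.9, 89.5 and 89.5% in DIO-VSG and 81, 82, 75.1 and 81.3% in DIO-HFD mice. All 4 had groups that did not overlap, which their choice by the smallest p favored, and differences of 7.14 to 9.34 points.

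Further protein-coding genes with lower means were chosen after their values were seen. Ldhd, the mitochondrial D-lactate dehydrogenase, was at 44.9, 58.2, 51.7 and 50.9% in DIO-VSG and 51.9, 80.2, 80.9 and 79.9% in DIO-HFD mice. Tpp1, a lysosomal peptidase, had 16 tested sites, all from -10459 to -10341 bases of its start and none in the gene. It was at 44.5, 52.6, 47.3 and 44.4% against 51.5, 66.1, 66.3 and 62.5%. In both the groups overlapped through DIO-HFD replicate 1. Prtn3, the neutrophil protease proteinase 3, was at 50.1, 53.1, 54.7 and 52.7% against 58.5, 68.5, 67.1 and 67.9%, and Lrrc25 at 50.6, 51.2, 55.4 and 54.4% against 58.1, 75, 74.1 and 65.8%, without overlap. Adm, the vasoactive peptide adrenomedullin, was at 27.5, 22.7, 23.2 and 25.5% against 27.1, 37.4, 35.2 and 32.3%.

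Sites near fibroblast and mesothelial marker genes were higher in DIO-VSG mice at a larger share than all tested sites. Of the 15 genes, 9 had a tested site. Of their 88 sites, 43 were higher (48.9%) and 0 lower at an unadjusted p under 0.05, beside 20.2% and 4.85% of all tested sites. The median difference was 11.7 points, beside 5.40 over all sites. The list mean was 67.4, 67.3, 67.1 and 66.6% in DIO-VSG and 69.1, 49.5, 50.8 and 50.3% in DIO-HFD mice, so replicate 1 lay above the DIO-VSG mice and the other 3 well below. Pdgfrb, a growth factor receptor of mural cells and fibroblasts, carried 17 of the higher sites among its 28 and was at 69.1, 68.2, 67.8 and 67.6% in DIO-VSG and 70.5, 48.2, 46.8 and 49.4% in DIO-HFD mice. Pi16, a marker of adventitial fibroblasts, carried another 17 among 30, at 68.2, 71.3, 67.4 and 68.5% against 70.8, 46.3, 50.8 and 47.9%. Col1a1, a chain of type I collagen, was at 70.4, 68.5, 72.6 and 67.8% against 72.4, 54, 56.2 and 54.5%. Pdgfra, another receptor of fibroblasts, had 0 of 7 sites passing in either direction, Col3a1 0 of 2, and Postn and Wt1 0 of 1 each. After centring, 22 of the 88 sites were higher (25%) and 1 lower (1.14%), beside 8.64% and 11.4% of all tested sites.

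Of 47 sites near adipocyte markers, in 9 of 20 genes, 15 were higher (31.9%) and 1 lower (2.13%), with a median of 8.99 points. All 5 sites of Slc2a4, the insulin-regulated glucose transporter GLUT4, were higher at an unadjusted p under 0.05. Its gene mean was 87.4, 88.7, 89 and 87% in DIO-VSG and 87.1, 64.6, 66.7 and 74.9% in DIO-HFD mice. Cfd, the adipokine adipsin, was at 81.5, 82.7, 81.4 and 81.7% against 82.7, 65.8, 68.7 and 68.6%. In both, the overlap came from DIO-HFD replicate 1 alone. Slc2a4 held 5 and Cfd 6 of the 15 higher sites. Agpat2, an enzyme of triglyceride synthesis, had 0 of 5 sites passing in either direction, Cebpa 0 of 2, and Adipoq, Pparg and Plin4 0 of 1 each. Lipe held 2 higher sites and the lower site among its 5, and Pnpla2 the other 2 higher sites among 8.

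The other cell type lists held sites in both directions. Of 34 endothelial sites 11 were higher (32.4%) and 4 lower (11.8%), of 47 lymphocyte sites 10 were higher (21.3%) and 7 lower (14.9%), and of 36 mammary epithelial sites 3 were higher and 3 lower (8.33% each). Of 15 macrophage genes 1, Adgre1, had a tested site. Within the lymphocyte list the sites went both ways. Cd37, a tetraspanin of B cells, was at 69.9, 64.8, 68.6 and 67.7% in DIO-VSG and 76.1, 31.3, 31 and 39.8% in DIO-HFD mice over 9 sites. Lat, the adaptor of T cell receptor signaling, had a site in its UTR at chr7:126369346 that was at 33.9, 36.8, 40.0 and 37.5% in DIO-VSG and 27.7, 91.7, 93 and 87% in DIO-HFD mice. There DIO-HFD replicate 1 was the lowest of the 8 mice and the other 3 the highest. This was the site of Lat with the smallest p. Of the 11 tested sites of Lat, 4 were lower and 1 higher, and the gene mean was 64.9% in DIO-VSG and 71.7% in DIO-HFD mice.

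**Figure D4:**
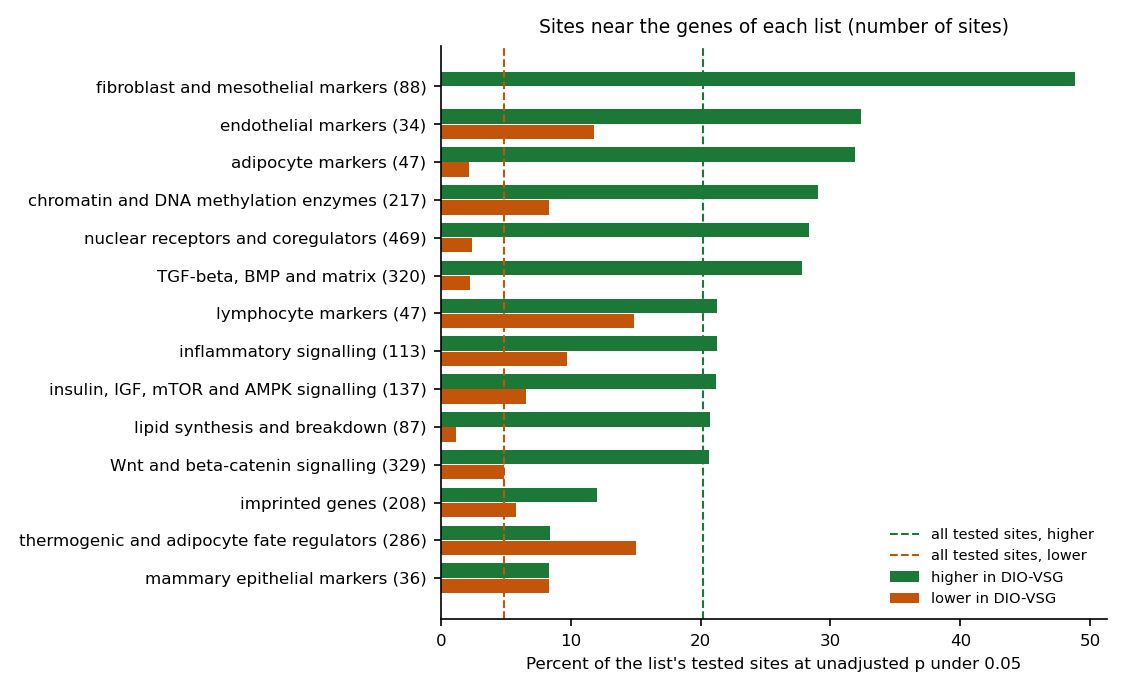
Percent of the tested sites near the genes of each list (number of sites in brackets, lists with at least 10 sites) that were higher or lower in DIO-VSG mice at an unadjusted p under 0.05. Dashed lines are the shares over all tested sites, 20.2% higher and 4.85% lower. The fibroblast and mesothelial list has the highest green bar, and the thermogenic list is the only list shown with a longer orange than green bar.

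The list of thermogenic and adipocyte fate regulators had more lower than higher sites. Of its 286 sites, in 17 of 29 genes, 24 were higher (8.39%) and 43 lower (15%), with a median of -2.34 points, and 51.7% of them were in CpG islands. The list mean was 41.5, 41.4, 41.7 and 42% in DIO-VSG and 42, 44.3, 46 and 42.2% in DIO-HFD mice. Without DIO-HFD replicate 1, 41 sites were higher and 67 lower at an adjusted p under 0.05. Prdm16, a determinant of brown fat identity, carried 14 of the lower sites among its 33 and 0 higher ones, with gene means of 39, 40.0, 39.1 and 39.7% against 41.3, 44.6, 51.1 and 43.4%. Ebf3, a factor of the early B-cell factor family, carried 12 lower and 3 higher sites among 54, at 33.9, 33.9, 33.3 and 33.2% against 35.1, 38.6, 42.5 and 37.6%. Shox2, a homeobox gene, had 6 lower and 0 higher sites among 15. In Prdm16 and Ebf3 all DIO-VSG values were below all DIO-HFD values. Bmp8b, a ligand linked to brown fat activity, went the other way, at 32.7, 31.7, 33.6 and 31.9% against 33.1, 19.8, 25.7 and 22.1%.

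Near nuclear receptor genes and their coregulators, 133 of 469 sites in 35 of 41 genes were higher (28.4%) and 11 lower (2.35%), and most sites passed in neither direction. Of 21 gene means, 9 were higher and 0 lower at an unadjusted p under 0.05 in limma. Of all 3886 gene means, 37% were higher and 3.78% lower. Rara, a retinoic acid receptor, had 36 higher and 3 lower sites among 77, at 51.6, 51.4, 52 and 51.6% in DIO-VSG and 54, 36.2, 38.8 and 37.7% in DIO-HFD mice. Nr1d1, the clock repressor REV-ERB alpha, was at 70.5, 71.6, 71.1 and 73.7% against 76.2, 43.9, 47.1 and 53.8%. Nr3c1, the glucocorticoid receptor, was at 71.2, 68, 73 and 65.3% against 68.2, 52, 49.6 and 52.8%. Esr1 and Pgr, the receptors of estrogen and progesterone, had 0 of 8 and 2 of 6 sites higher and 0 lower.

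Among chromatin regulators, 63 of 217 sites were higher (29%) and 18 lower (8.29%), and 23 of the higher sites belonged to Hdac5. This class IIa histone deacetylase was at 57.7, 57.5, 53.7 and 55.4% in DIO-VSG and 63.7, 23.5, 25 and 26.6% in DIO-HFD mice over 27 sites. Nsd1, a histone methyltransferase, carried another 22 of 53.

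TGF-beta, BMP and matrix genes had 89 of 320 sites higher (27.8%) and 7 lower (2.19%). Ltbp3, which binds latent TGF-beta, was at 73.7, 74.9, 73.4 and 74% in DIO-VSG and 76.8, 57.8, 58.9 and 60.5% in DIO-HFD mice, with 22 higher sites among 50. In the promoter of Bmpr1a, a BMP receptor, an intronic site at chr14:34503041 lay within CCGG. It was at 100% in the 4 DIO-VSG mice and 72.1, 75.7, 73.1 and 65.7% in the DIO-HFD mice. The other tested site of Bmpr1a was lower at an unadjusted p under 0.05, and the mean of both was 50.6% against 49.6%.

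The Wnt list was at the level of all sites, with 68 of 329 higher (20.7%) and 16 lower (4.86%). Wnt10b, a ligand that holds back adipocyte formation, was at 59.5, 56.9, 57.6 and 57.5% in DIO-VSG and 63.5, 37.4, 38.7 and 38.3% in DIO-HFD mice, with 14 higher sites among 26. Tcf7, a transcription factor of the pathway and of T cells, was lower, at 40.6, 41.3, 45.1 and 44.9% against 39.2, 55.2, 56.8 and 56.6%, with 6 lower sites among 13.

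The lists of lipid metabolism, insulin signaling and inflammation were near all sites in their higher share. Of 87 lipid metabolism sites 18 were higher (20.7%) and 1 lower (1.15%). Of 137 insulin, IGF, mTOR and AMPK sites 29 were higher (21.2%) and 9 lower (6.57%). Of 113 inflammatory sites 24 were higher (21.2%) and 11 lower (9.73%), beside 4.85% lower over all sites. Socs3 held 9 of these lower inflammatory sites and 11 of the higher ones. Foxo3, a transcription factor restrained by insulin, had 8 lower and 3 higher sites among 24, at 32.7, 34.3, 33.2 and 32.7% against 32.4, 38.5, 45.3 and 37.2%. Tnfrsf1a, the main TNF receptor, had 6 higher and 0 lower sites among 11.

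Imprinted genes, whose control regions are methylated on the copy from a single parent, had 25 of 208 sites higher (12%) and 12 lower (5.77%). Mcts2, a paternally expressed retrogene within an intron of H13, was the exception. Over its 9 sites the DIO-VSG mice were at 79, 77.9, 82 and 74.8%, and the DIO-HFD mice at 80.01, 44.3, 47 and 45.3%, with 8 sites higher. The CON-LFD and DIO-LFD mice spread between 56.9 and 78.2%. Gnas, with 83 sites, had 7 higher and 7 lower.

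Under centring, the median log2 ratio of the insulin, inflammatory, Wnt, chromatin, imprinted and mammary epithelial lists turned from higher to lower. Those of the fibroblast, adipocyte, endothelial, lymphocyte, lipid, TGF-beta and nuclear receptor lists stayed above 0, although 11 lymphocyte and 8 endothelial sites were then lower and 1 and 2 higher. Lipid sites were then 3 higher and 8 lower. TGF-beta sites were 29 higher (9.06%) and 30 lower (9.38%), beside 8.64% and 11.4% of all tested sites. Adipocyte sites were 7 higher and 2 lower, and nuclear receptor sites 79 higher and 56 lower. The gene means of Esr1, Pgr and Gnas turned from higher to lower, and the genes whose means per mouse are given above kept their direction.

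The mice outside the contrast were then placed on the same sites. Sites were taken where the 4 DIO-VSG mice did not overlap DIO-HFD replicates 2 to 4 and the means were at least 20 points apart. On a scale from the DIO-VSG mean (0%) to the mean of these 3 DIO-HFD mice (100%), DIO-HFD replicate 1 lay at -12.2% over the 7492 higher sites outside CCGG. The CON-LFD mice lay at 10.3, 9.67 and 57.1% and the DIO-LFD mice at -5.00, 49 and 26.6%. Over the 1330 lower sites outside CCGG the same mice were placed alike, with DIO-HFD replicate 1 at -5.30%, the CON-LFD mice at 12, 10.01 and 53.6% and the DIO-LFD mice at 4.85, 47.7 and 27.4%. Formerly obese mice switched to the low-fat diet lay between the groups or with DIO-VSG mice, and so did lean mice. Because the sites were chosen for a wide gap, other mice tend to fall within it, so these places are a description.

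A different order was seen at 78 lower sites within CCGG of island promoters, assigned to 75 genes. There DIO-HFD replicate 1 lay at 112%, with its own group. CON-LFD replicate 2 lay at 98.2% and DIO-LFD replicate 2 at 106%, while the other CON-LFD mice lay at 29.99 and 23.1% and the other DIO-LFD mice at 4.01 and -6.52%. The levels at these sites were 19.8, 12.2, 25.1 and 32% in DIO-VSG mice and 56.7, 52.1, 50.9 and 56.3% in DIO-HFD mice. At 27 higher sites within CCGG of island promoters, DIO-HFD replicate 1 lay at 62% and the CON-LFD mice at 37.4, 68.6 and 35.7%. At the other sites within CCGG it lay with the DIO-VSG mice, at -10.04% over 632 higher and 11.4% over 135 lower sites. All these sites were chosen by the values of 7 mice, so their levels in those mice are a description.

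**Figure D5:**
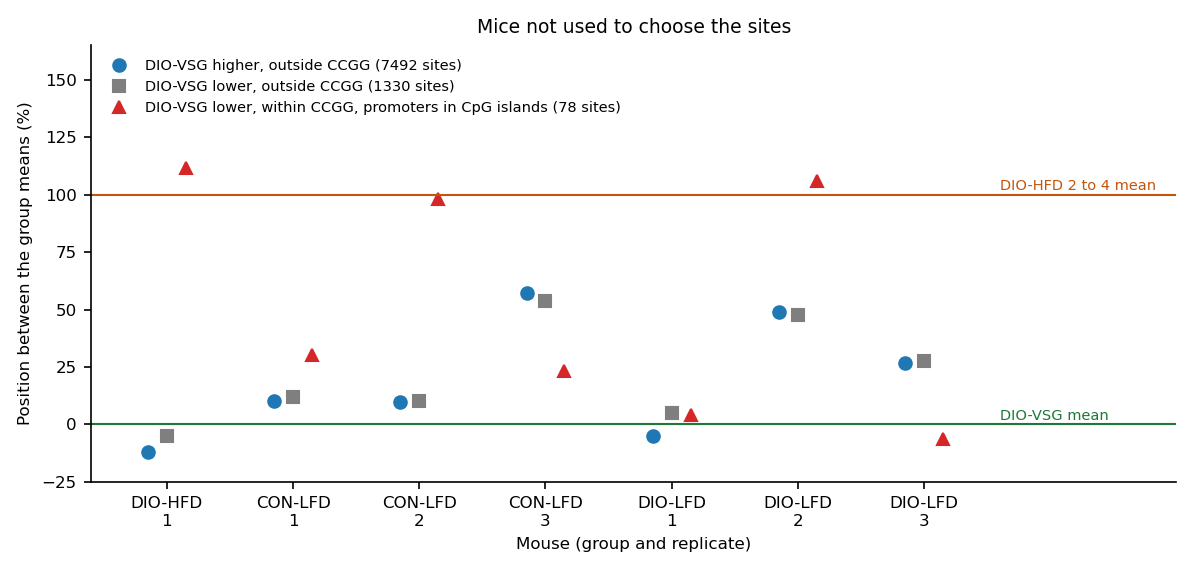
Position (percent, y axis) of the 7 mice that did not choose the sites (x axis), where 0 is the DIO-VSG mean and 100 the mean of DIO-HFD replicates 2 to 4. Points are means over 7492 higher sites outside CCGG, 1330 lower sites outside CCGG and 78 lower sites within CCGG of island promoters, and of these 3 sets only in the last does DIO-HFD replicate 1 lie with its group.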

How the data were processed

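DNA of the mammary fat pads was digested with MspI, bisulfite-converted and sequenced. Per the labels and the methods of the study, the authors used Bismark with the mm10 build and called CpG methylation with methylKit. The methods name the removal of bases with extreme coverage and of bases with a low standard deviation, and of 1 CON-LFD and 1 DIO-LFD mouse as outliers. The deposited values are methylation levels as a fraction from 0 to 1, without coverage, printed here in percent. Flags for promoter, exon, intron and CpG island and the nearest gene are the authors', and 562 sites without a usable symbol were left out of gene summaries.

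Levels were transformed to M, the log2 ratio of methylated to unmethylated share with 0.01 added to each. A model with 4 groups was fitted over all 14 mice with limma 3.58.1 in R 4.3.3, after leaving out 10151 sites that varied little (standard deviation under 0.05), which left 65610. Benjamini-Hochberg adjustment ran over all of them. Gene means used genes with at least 5 tested sites. Class means per mouse were compared by exact two-sided permutation tests in Python 3.11.15. The fit was tested on simulated data. CCGG and printed sequences were read from GRCm38, and gene parts from GENCODE. Named sites were, per annotation class and direction, those with the smallest p whose groups did not overlap, at most 1 site a gene and 2 sites a class, and the 2 genes with the smallest p of each list. Named genes were the 4 with the smallest p in each direction, and others were chosen after their values were seen. The comparison, lists and genes were chosen with earlier results of these data known. Alternatives changed the offset, filter, scale, centring, mice in the fit, minimum sites, site context and class summary, and left out each mouse in turn. Some items are not reported here.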

Additional observations from a re-analysis of the deposited data

Results flagged for a closer look

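In 33 of 202 groups of 4 mice examined, 1 mouse lay far from the other 3, by the ratio of its gap to the range of the group in Dixon's test at the 95% level. Chance gives about 1 in 20, or 10.1 of 202, and the values share mice and sites. The group was DIO-HFD in 30 cases and DIO-VSG in 3.

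For class means in DIO-HFD mice, the ratio was 0.953 over all sites, 0.885 in exons, 0.958 in introns, 0.838 at 30 to 70%, 0.904 at 70 to 90%, 0.974 within CCGG and 0.948 outside CCGG. It was 0.955 for the gap between promoters outside and within islands. In each of these DIO-HFD replicate 1 was the mouse apart. In DIO-VSG mice it was 0.863 for sites under 10%, where replicate 2 was highest.

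Among single sites in DIO-HFD mice, the ratio was 1.000 at Celf1, where replicate 3 was apart, and 0.939 at Tmem9b, where it was replicate 3 as well. With replicate 1 apart it was 0.866 at Cd37, 0.909 at Lat, 0.856 at Pdgfrb, 0.921 at Socs3, 0.911 at Lama5, 0.907 at Rara and 0.840 at Mcts2. In DIO-VSG mice replicate 3 was apart at Zfand3 (1.000) and Tnfrsf1a (0.869).

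Among gene means in DIO-HFD mice, replicate 3 was apart at Gm26379 (0.853). Replicate 1 was apart at Gm24164 (0.837), Ldhd (0.966), Prtn3 (0.865), Mcts2 (0.925), Hdac5 (0.922), Lat (0.851), Rara (0.856), Pdgfrb (0.889), Col1a1 (0.883), Ltbp3 (0.856), Wnt10b (0.952) and Tcf7 (0.909). What sets this mouse apart was not tested.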

How the results depend on the processing

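The 2 sites past the adjusted threshold became 4 with an offset of 0.1, 0 with trend and robust estimation, 47 with only the DIO-VSG and DIO-HFD mice, 5 with a minimum standard deviation of 0.1 and 0 outside CCGG. Leaving out each mouse gave 2 to 22557 such sites, 22557 without DIO-HFD replicate 1. At an unadjusted p under 0.05, centring gave 5666 higher and 7447 lower sites, a standard deviation of 0.1 gave 4816 and 1178, and leaving out a mouse gave 7217 to 24597 higher and 2088 to 4846 lower. Gene means gave 485 higher and 697 lower after centring and 729 and 81 with at least 10 sites a gene. Without each mouse in turn 0 to 2442 genes passed the adjusted threshold, and 752 to 2384 were higher and 89 to 226 lower unadjusted, with the highest counts again without DIO-HFD replicate 1.

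With a standard deviation of 0.1 the difference was -6.36 points under 10% and -2.95 at 10 to 30%, and the gaps to island promoters were 10.2 points for introns and 7.98 for other promoters (exact p = 0.0286 for each). Outside CCGG it was 0.382 points at 10 to 30%, and the intron gap was 2.78 (exact p = 0.0286). With medians over sites it was -0.318 in island promoters, 0.292 under 10% and 0.715 at 10 to 30%, and the promoter gap was 4.87 (exact p = 0.0286). Without each mouse it ran from -1.02 to 0.609 under 10%, positive without DIO-HFD replicate 3. At 10 to 30% it ran from -0.649 to 0.475, being 0.0405 without DIO-VSG replicate 2, and 0.475 and 0.288 when DIO-HFD replicate 1 or 3 was left out. The causes were not tested.

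For the Ctnnb1 and Gm23036 sites the adjusted p was 0.0740 for both with levels, 0.0677 and 0.0501 with trend and robust estimation, and 0.0530 for Ctnnb1 with an offset of 0.1. Leaving out any of the 8 mice left the share of island promoter CCGG sites at 30 to 70% lower in DIO-VSG by values from -7.69 to -4.66 points, each with an exact p of 0.0571. That alternative was chosen after seeing the data.

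Same-numbered DIO-VSG and DIO-HFD mice did not deviate together (r = 0.0573, -0.0044, 0.0016 and 6e-04 across sites), so the numbers do not pair mice. With the replicate block 2 sites passed the adjusted threshold, 14735 were higher and 3378 lower unadjusted, and 1613 gene means were higher and 146 lower. Depth is unknown, so counting error could not be given for any site.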

Other observations

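Other sites, each among the 2 smallest p of a gene list, were not described above, and each had an adjusted p of 0.15 in limma. Sox17, a transcription factor of endothelium, had a coding site within CCGG. It was at 8.33, 9.38, 13 and 3.33% in DIO-VSG and 48.7, 34, 42 and 41% in DIO-HFD mice. Dnmt3a, a de novo DNA methyltransferase, had an intronic site in its promoter at 7.30, 9.01, 3.54 and 5.51% against 9.33, 18.5, 30.3 and 23.9%. In both, every DIO-VSG mouse was lower. These were the only lower sites of their genes at an unadjusted p under 0.05. Of the 5 sites of Sox17, 1 was higher, and the gene mean was 34.7% against 40.1%. Of the 7 sites of Dnmt3a, 2 were higher, and the gene mean was 45.6% against 45.9%. Lipe, the hormone-sensitive lipase, had an intronic site at 85.1, 88.4, 85.4 and 84% against 83.3, 56.3, 51.3 and 46.7%. The gene mean of Lipe turned from higher to lower on centring.

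On the X chromosome, 3069 tested sites had means of 60.2, 59.3, 60.5 and 60.5% in DIO-VSG and 61.6, 56.1, 55.3 and 56.2% in DIO-HFD mice, a difference of 2.83 points. Over 62521 autosomal sites it was 4.99 points. The difference between these was not tested.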
